A study of Homo sapiens with 8 samples.

Results

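The genes described here are 32 genes of cholesterol and fatty acid synthesis in OVCAR3 cells, a human ovarian cancer cell line. They were chosen by symbol, with earlier results of these data known. Of these, 5 are regulators of the pathway (SREBF1, SREBF2, SCAP, INSIG1 and INSIG2). The sterol arm has 19 genes, from the thiolase ACAT2 to the sterol carrier STARD4. The fatty acid arm has 8 genes, from ACLY to FADS2. Each of the 32 had 1 row among the 20165 rows of every count table. All 32 were among the 14024 genes that passed the filter on low counts. RNA-seq was made from total RNA, depleted of rRNA, as 8 libraries in 4 groups of 2. The siControl and siTARG1 groups were OVCAR3 cells transfected for 48 h with 30 nM of a control siRNA or of an siRNA against OARD1, the gene of the ADP-ribosyl hydrolase TARG1. The RACK1-WT and RACK1-Mut groups were OVCAR3 cells treated for 48 h with 1 µg/ml doxycycline (Dox), which induced an shRNA against endogenous RACK1 from pTRIPZ together with an HA-tagged cDNA of wild-type RACK1 or of RACK1 mutated at the sites of its mono-ADP-ribosylation (MARylation). Several TARG1 siRNAs are listed by the study, and the one used for these libraries is not given in the sources used here. The study describes its sequencing replicates as independent biological samples. The p-values rest on the spread between libraries of a group, estimated over all 4 groups together and drawn towards that of other genes.

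Exon counts ran from 30989049 to 42668783 per library, and replicates correlated at r = 0.9972 to 0.9980 across genes. OARD1 stood at 48.5 and 52 CPM (counts scaled by library size and TMM) in siControl and at 3.11 and 3.98 CPM in siTARG1, which matches the labels. RACK1 stood at 4516 to 4622 CPM in siControl and at 1397 to 1898 CPM in the RACK1 lines, a row in which reads of the endogenous gene and of the cDNA cannot be told apart. Of 8 markers of ovarian epithelium all were read in every library, and 6 passed the test in siTARG1, against 46.6% of all genes tested. KRT8 (log2 fold change -1.08), KRT18 (-1.31), WT1 (-0.74) and MUC16 (-0.70) were lower in siTARG1. CDH1 (1.50) and KRT7 (0.44) were higher, and PAX8 and EPCAM did not pass. The part of these markers in the results below was not tested. Of 7 stromal, immune and endothelial markers with a row, 1 of the 6 tested passed in siTARG1 (16.7%, against 46.6% of all genes). It was CD68 (log2 fold change -0.84). Levels ran from 0 to 7.47 CPM over the list. The stromal marker DCN stayed at or under 0.142 CPM in every library, while COL1A1 was at 4.81 to 7.47 CPM, VWF at 2.7 to 4.21 CPM and CD68 at 2.8 to 6.31 CPM.

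Cells build both sterols and fatty acids from acetyl-CoA. The transcription factors SREBP-1 (gene SREBF1), known mainly for fatty acid genes, and SREBP-2 (gene SREBF2), known mainly for sterol genes, are made as membrane proteins, and when sterols run low SCAP escorts them to the Golgi to be cut free, while INSIG proteins hold SCAP back when sterols are plentiful. INSIG1 is itself a target of SREBPs, and the promoters of many target genes are bound by NF-Y and Sp1 beside the SREBP.

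The comparison of siTARG1 with siControl asked how these mRNAs differed after the TARG1 siRNA. The labels name no other TARG1 siRNA and no rescue, so other effects of the siRNA cannot be told apart from loss of TARG1. Of the 32 genes 23 passed the test (adjusted p under 0.05, edgeR's quasi-likelihood test), against 46.6% of all genes tested. Of these, 17 were lower in siTARG1, against 23.1% of all genes, and 6 were higher, against 23.5%. More than 2-fold lower were 5 genes, MSMO1, ACSS2, FADS2, FADS1 and TM7SF2, against 4.16% of all genes. The median log2 fold change was -0.29 over the 32 genes and 0.01 over all genes. The 32 genes were chosen with earlier results of these data known, so these shares describe the set and are not independent evidence. On the authors' RPKM scale 13 of the 32 passed, 8 lower and 5 higher, against 3557 of 14024 genes, 1287 lower and 2270 higher. The share of called genes that were higher was 63.8% over all genes in place of 50.4%.

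**Figure D1:**
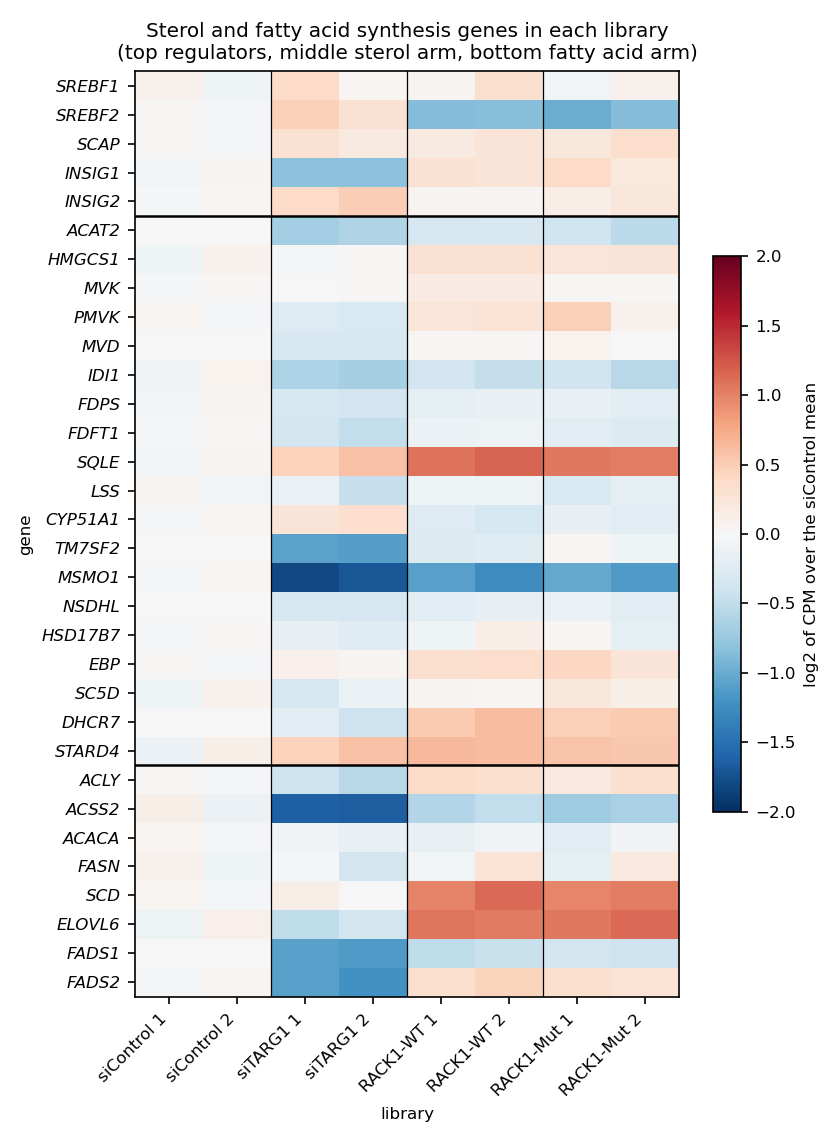
Each row is a gene and each column a library. Color gives the log2 of its CPM over the mean of the 2 siControl libraries. MSMO1, ACSS2, FADS1, FADS2 and TM7SF2 are the darkest blue rows in siTARG1, and SQLE, SCD and ELOVL6 are the darkest red rows in the RACK1 lines.

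The regulators moved in both directions. SREBF2 (chr22:42229109-42303310 in GRCh37, plus strand) was at 140 and 136 CPM in siControl, 192 and 170 in siTARG1, 75.7 and 76.7 in RACK1-WT and 69.4 and 75.8 in RACK1-Mut. Both siTARG1 libraries were above both siControl libraries, and the gene rose 1.31-fold (log2 fold change 0.39, SE 0.08, adjusted p = 0.00069). INSIG1 (chr7:155089486-155101945, plus strand) went the other way, at 76.6 and 82.1 CPM in siControl, 45 and 45.1 in siTARG1, 98.3 and 94.5 in RACK1-WT and 103 and 91.7 in RACK1-Mut. Its 2 siTARG1 libraries were the lowest of the 8, and it fell 1.76-fold (log2 fold change -0.82, SE 0.08, adjusted p = 1.2e-06). INSIG2, the other INSIG protein, rose from 15.1 and 16 CPM to 20.2 and 21.9 CPM (log2 fold change 0.44, SE 0.09, adjusted p = 0.0011). SCAP, the escort protein, rose from 150 and 146 CPM to 182 and 167 CPM (log2 fold change 0.24, SE 0.07, adjusted p = 0.013). Its call was lost without siControl replicate 2 (0.23) and without siTARG1 replicate 1 (0.18). SREBF1 read 134 and 119 CPM in siControl against 164 and 130 in siTARG1, groups that overlap, with a log2 fold change of 0.22 (SE 0.11, adjusted p = 0.12). It passed the test when siTARG1 replicate 2 was left out (0.36) and when coding-sequence reads were counted (0.27).

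In the mevalonate part of the sterol arm, which makes isoprenoid units from acetyl-CoA, the genes fell or did not pass the test. ACAT2, the cytosolic thiolase of the opening step, fell from 51.8 and 51.5 CPM to 32.4 and 34 (log2 fold change -0.64, SE 0.07, adjusted p = 1e-05). HMGCS1, the HMG-CoA synthase of the next step, was at 162 and 182 CPM in siControl and at 168 and 174 in siTARG1, with a log2 fold change of -0.01 and a 95% interval of -0.16 to 0.14. The 2 siTARG1 libraries of HMGCS1 lay between the 2 siControl libraries. The kinases MVK (log2 fold change 0.01, 95% interval -0.16 to 0.19) and PMVK (-0.29, SE 0.12, adjusted p = 0.055) did not pass, though PMVK did with no filter on low counts (-0.30) and with the libraries compared alone (-0.29). MVD, the decarboxylase, fell from 25.4 and 25.7 CPM to 20.5 in both siTARG1 libraries (log2 fold change -0.32, SE 0.08, adjusted p = 0.0047). IDI1, the isopentenyl diphosphate isomerase, fell from 64.5 and 71.4 CPM to 44.4 and 42.6 (log2 fold change -0.64, SE 0.08, adjusted p = 2.2e-05). FDPS, the farnesyl diphosphate synthase and the gene of this set with the highest RPKM in siControl, fell from 299 and 321 CPM to 244 and 237 (log2 fold change -0.37, SE 0.07, adjusted p = 0.00047). In all 4 of these genes both siTARG1 libraries were below all 6 other libraries. The MVD and FDPS calls were lost under some alternative processing.

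At the branch into sterols, neighbouring enzymes differed in direction. FDFT1, the squalene synthase, fell from 153 and 158 CPM to 120 and 110 (log2 fold change -0.44, SE 0.07, adjusted p = 0.00013). SQLE, the squalene epoxidase that works next and a known rate-limiting step, rose from 26.1 and 28.3 CPM to 37.5 and 40.9 (log2 fold change 0.53, SE 0.08, adjusted p = 9.4e-05). LSS, which closes the sterol rings, was at 93.6 and 86 CPM in siControl and at 81.7 and 65 in siTARG1 (log2 fold change -0.29, SE 0.10, adjusted p = 0.022). Its call was lost without siControl replicate 1 (-0.22) or siTARG1 replicate 2 (-0.15). CYP51A1, the lanosterol demethylase, rose from 141 and 149 CPM to 173 and 182 (log2 fold change 0.29, SE 0.07, adjusted p = 0.0027).

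The steps after CYP51A1 held the deepest fall of the sterol arm. MSMO1 (chr4:166248819-166264316, plus strand), the oxidase that removes methyl groups from the sterol ring, stood at 135 and 142 CPM in siControl, 39.8 and 42.4 in siTARG1, 65 and 58 in RACK1-WT and 67.9 and 63.4 in RACK1-Mut. It fell 3.37-fold in siTARG1 (log2 fold change -1.75, SE 0.08, adjusted p = 1.7e-09), and its siControl libraries were above those of all other groups. TM7SF2 (chr11:64879317-64883856, plus strand), a sterol reductase, stood at 98.5 and 97.4 CPM in siControl, 46.5 and 45.4 in siTARG1, 80.8 and 83 in RACK1-WT and 99.9 and 92.1 in RACK1-Mut. It fell 2.13-fold (log2 fold change -1.09, SE 0.07, adjusted p = 3.6e-08). RACK1-Mut overlapped siControl, while RACK1-WT was below it after TMM scaling (log2 fold change -0.26). NSDHL, the dehydrogenase that acts with MSMO1, fell from 37.5 and 38.1 CPM to 30.2 and 29.9 (log2 fold change -0.33, SE 0.07, adjusted p = 0.0023). HSD17B7, the reductase of the same demethylation complex (log2 fold change -0.20, SE 0.13, adjusted p = 0.22), and EBP, the sterol isomerase (0.08, SE 0.08, adjusted p = 0.46), did not pass. DHCR7, a reductase at the end of the pathway, fell from 49.6 and 49.4 CPM to 42.9 and 37.2 (log2 fold change -0.31, SE 0.08, adjusted p = 0.0066). SC5D, the desaturase just before it, was at 44.9 and 50.6 CPM in siControl and at 37.8 and 43.5 in siTARG1 (log2 fold change -0.23, SE 0.09, adjusted p = 0.044). The SC5D call was lost without siControl replicate 2 (-0.14), without siTARG1 replicate 1 (-0.13) and with DESeq2 (-0.23). STARD4, which carries sterols between membranes and is a known SREBP target, rose from 43.3 and 50.4 CPM to 64.3 and 70 (log2 fold change 0.52, SE 0.08, adjusted p = 0.00014). In sum 14 of the 19 sterol genes passed, 11 lower and 3 higher (SQLE, CYP51A1 and STARD4), against 46.6% of all genes tested called, 23.1% lower and 23.5% higher. On the authors' RPKM scale 7 of the 19 passed, 4 lower and 3 higher, against 3557 of 14024 genes, 1287 lower and 2270 higher. The calls of MVD, FDPS, FDFT1, LSS, NSDHL, SC5D and DHCR7 were lost under some alternative processing.

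**Figure D2:**
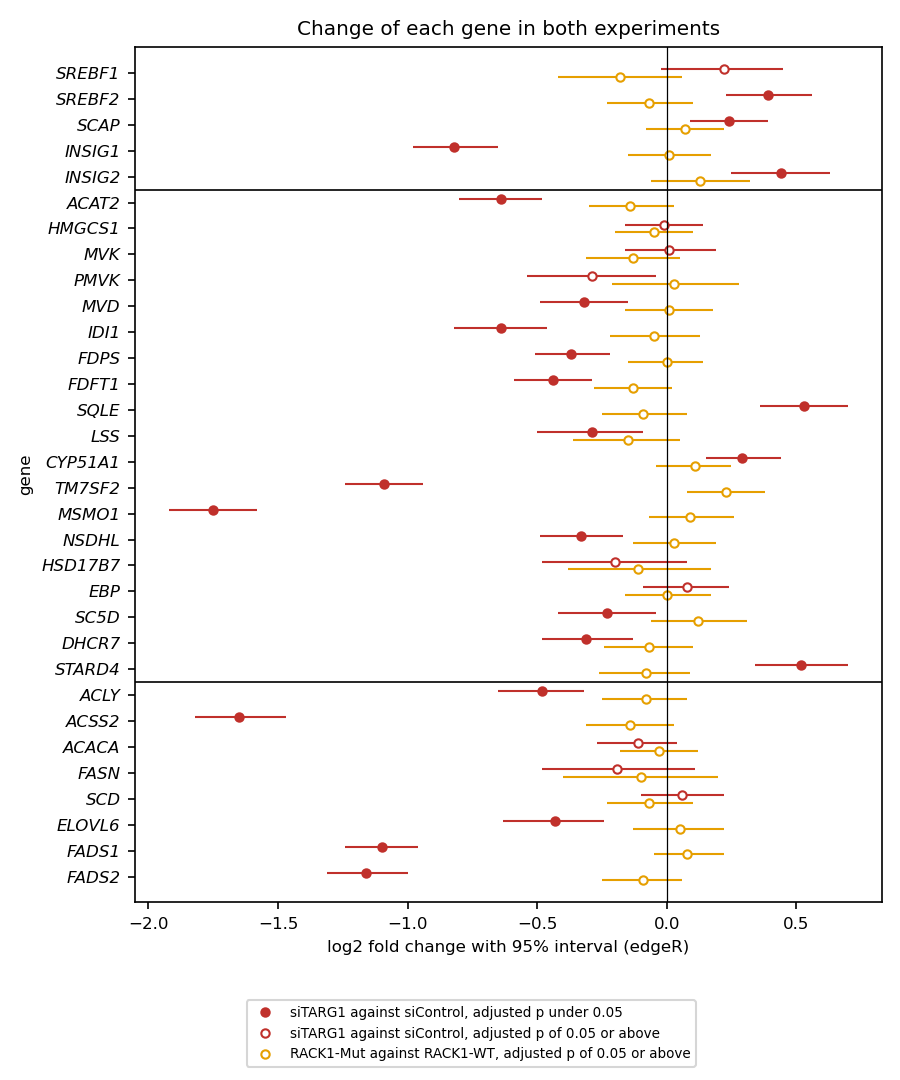
Points are log2 fold changes from edgeR with their 95% intervals, red for siTARG1 against siControl and orange for RACK1-Mut against RACK1-WT. Filled points have an adjusted p under 0.05. The red points run from -1.75 (MSMO1) to 0.53 (SQLE), whereas all orange intervals lie between -0.42 and 0.38.

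In the fatty acid arm 5 of 8 genes passed, all lower in siTARG1, against 46.6% called and 23.1% lower over all genes tested. On the authors' RPKM scale 3 of 8 passed, all lower, against 3557 of 14024 genes called and 1287 called lower. The ACLY and ELOVL6 calls were lost under some alternative processing. ACSS2 (chr20:33459949-33515765, plus strand), which makes acetyl-CoA from acetate, stood at 183 and 155 CPM in siControl, 54.3 and 53.6 in siTARG1, 112 and 120 in RACK1-WT and 103 and 107 in RACK1-Mut. It fell 3.13-fold (log2 fold change -1.65, SE 0.08, adjusted p = 4.4e-09). After TMM scaling the RACK1 lines lay between siControl and siTARG1 with no overlap. On the authors' RPKM scale ACSS2 was not called lower in RACK1-WT than in siControl. ACLY, which makes acetyl-CoA from citrate, fell from 79.7 and 76.9 CPM to 58.7 and 53.2 (log2 fold change -0.48, SE 0.08, adjusted p = 0.00014). The enzymes of the chain itself did not pass. ACACA, the acetyl-CoA carboxylase, had a log2 fold change of -0.11 (95% interval -0.27 to 0.04). FASN, the fatty acid synthase, had one of -0.19 (95% interval -0.48 to 0.11). FASN varied widely between replicates, at 226 and 177 CPM in siTARG1 and at 220 and 277 in RACK1-WT, and it passed the test without siTARG1 replicate 1 (-0.37). SCD, the desaturase that makes monounsaturated chains, was at 599 and 565 CPM in siControl and at 633 and 581 in siTARG1 (log2 fold change 0.06, 95% interval -0.10 to 0.22).

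The elongase and the desaturases of polyunsaturated chains in this arm fell. ELOVL6, the elongase of chains with no or a single double bond, fell from 28 and 32.2 CPM to 21.1 and 23.4 (log2 fold change -0.43, SE 0.09, adjusted p = 0.0012). FADS1 (chr11:61567099-61596790, minus strand) stood at 392 and 394 CPM in siControl, 186 and 179 in siTARG1, 277 and 289 in RACK1-WT and 306 and 294 in RACK1-Mut. FADS2 (chr11:61560452-61634826, plus strand) stood at 157 and 165 CPM in siControl, 75.5 and 69.2 in siTARG1, 202 and 218 in RACK1-WT and 200 and 194 in RACK1-Mut. These neighbouring desaturases fell alike in siTARG1, FADS1 2.15-fold (log2 fold change -1.10, SE 0.06, adjusted p = 1.6e-08) and FADS2 2.23-fold (-1.16, SE 0.07, adjusted p = 2.9e-08). In the RACK1 lines they parted after TMM scaling, with FADS1 below siControl and FADS2 above it. On the authors' RPKM scale FADS1 was not called lower in RACK1-WT than in siControl.

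Read positions were compared within each gene, between coding sequence and 3′ untranslated region. The log2 ratio of siTARG1 to siControl had the same sign over both regions in 30 of 32 genes and in 23 of the 23 called genes. In 0 genes did the 2 ratios differ by more than 0.5. Both regions are parts of the exon counts that gave the calls, so their agreement is not independent evidence. Its share over all genes was not taken. MSMO1 gave -1.75 in both regions, and ACSS2 gave -1.65 and -1.64.

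**Figure D3:**
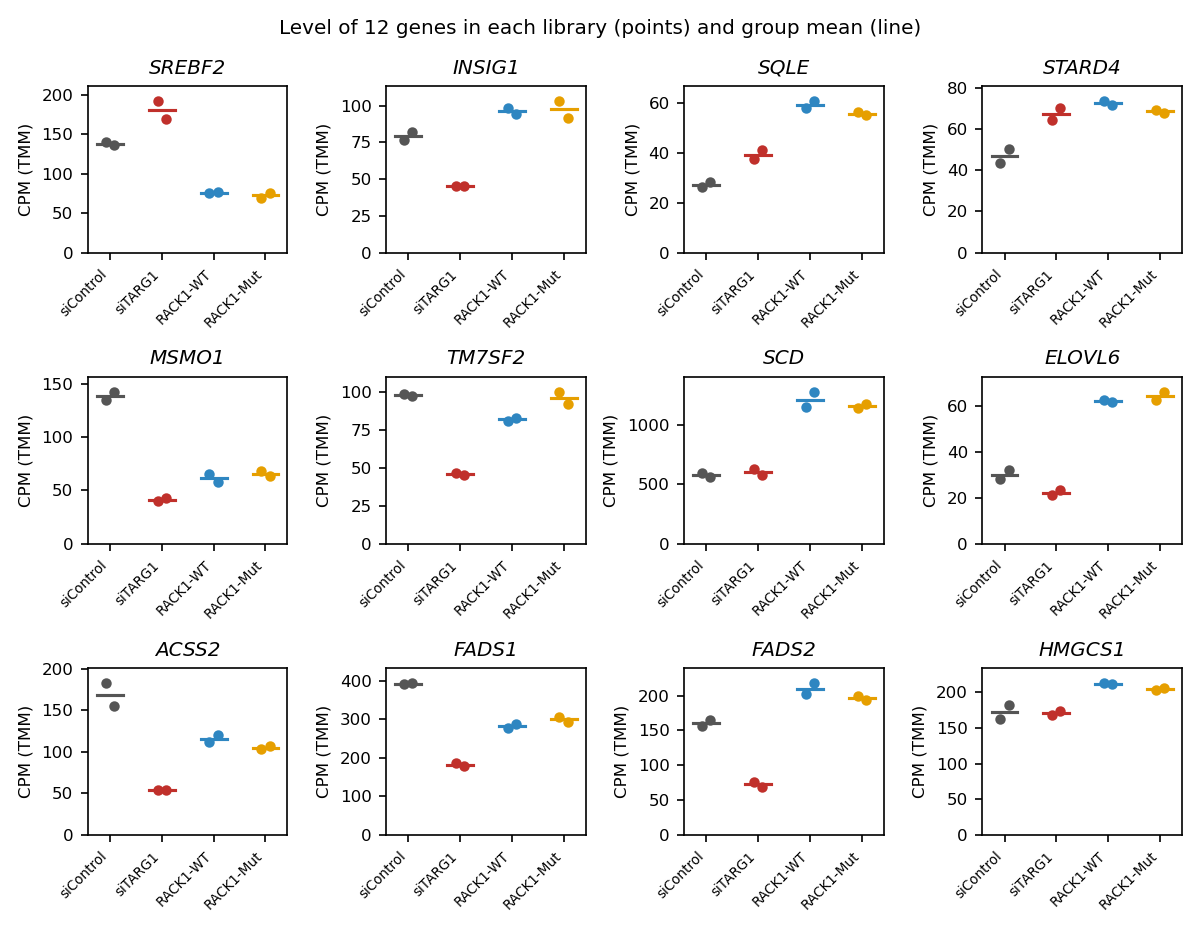
Points are libraries and lines group means, in CPM after TMM scaling, with every axis starting at 0. siTARG1 is the lowest group for INSIG1, MSMO1, TM7SF2, ELOVL6, ACSS2, FADS1 and FADS2, siControl is the lowest for SQLE and STARD4, and the RACK1 lines are the lowest for SREBF2.

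Levels differed widely between genes. Per length of exon, mean RPKM in siControl ran from 4.54 for ELOVL6, 5.83 for HSD17B7 and 6 for INSIG2 to 86.8 for FADS1, 109 for SCD and 194 for FDPS. Summed over the arm, the 19 sterol genes gave 647 and 678 RPKM in siControl, 517 and 512 in siTARG1, 614 and 620 in RACK1-WT and 633 and 602 in RACK1-Mut. The 8 fatty acid genes gave 369 and 352 RPKM in siControl, 256 and 236 in siTARG1, 442 and 481 in RACK1-WT and 437 and 452 in RACK1-Mut. After TMM scaling both sums were lowest in siTARG1, and the fatty acid sum was highest in the RACK1 lines. The log2 difference of the sterol sum between RACK1-WT and siControl turned from -0.10 after TMM scaling to 0.33 on the authors' RPKM scale, and that of the fatty acid sum moved from 0.36 to 0.78. The log2 ratio of sterol to fatty acid arm was 0.81 and 0.95 in siControl, 1.01 and 1.12 in siTARG1, 0.48 and 0.37 in RACK1-WT and 0.53 and 0.41 in RACK1-Mut.

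SCD, the most abundant member of the fatty acid arm, set part of that order. It made up 30 to 30.3% of the fatty acid arm in siControl, 46 to 46.1% in siTARG1 and 48.7 to 49.5% in the RACK1 lines. Without SCD, a sum taken after these values were seen, the fatty acid arm gave 257 and 246 RPKM in siControl, 138 and 127 in siTARG1, 227 and 243 in RACK1-WT and 224 and 232 in RACK1-Mut. The log2 ratio of the arms was then 1.33 and 1.46 in siControl, 1.90 and 2.01 in siTARG1, 1.44 and 1.35 in RACK1-WT and 1.50 and 1.38 in RACK1-Mut. The siTARG1 libraries had the highest ratio both with and without SCD, whereas the RACK1 lines were below siControl with SCD and overlapped it without. As a median over genes, the log2 change against the siControl mean was -0.26 and -0.32 in the siTARG1 libraries for the sterol arm and -0.46 in both for the fatty acid arm. No test was run on these sums or medians, since the genes are not replicates.

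**Figure D4:**
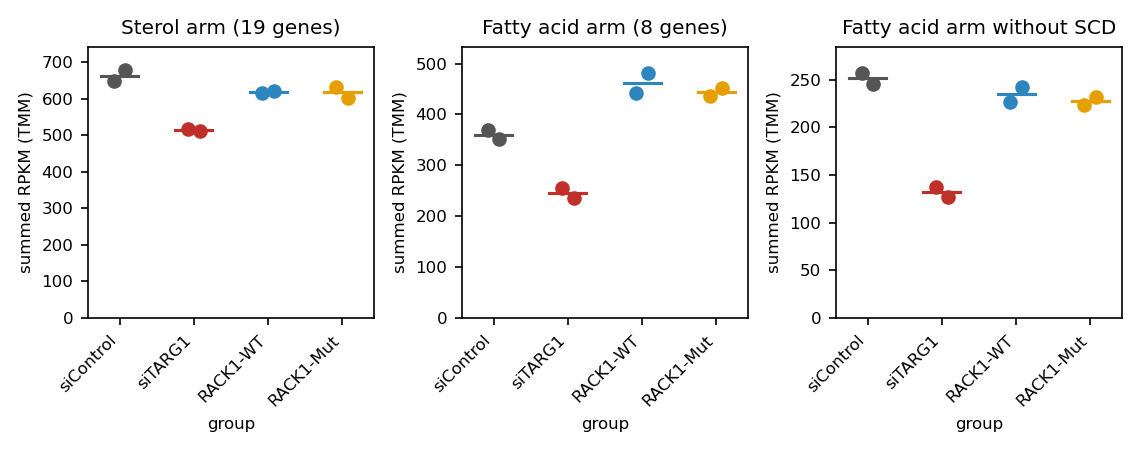
Summed RPKM (scaled by TMM) of each arm in every library, as points, with group means as lines and axes from 0. The 2 siTARG1 libraries are the lowest in all 3 panels, and after this scaling the RACK1 lines are above siControl only in the middle panel, where SCD is in the sum. On the authors' RPKM scale the sterol sum of RACK1-WT was above siControl (log2 difference 0.33).

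The comparison of RACK1-Mut with RACK1-WT asked whether the MARylation sites of RACK1 bear on these mRNAs. Of the 32 genes 0 passed edgeR's test, against 0.00713% of all genes (1 of 14024), while 1 of the 32 and 687 of all genes had an unadjusted p under 0.05. DESeq2 called 0 of the 32 and 18 of all genes. The gene with the lowest p was TM7SF2, at 99.9 and 92.1 CPM in RACK1-Mut and 80.8 and 83 in RACK1-WT (log2 fold change 0.23, SE 0.07, adjusted p = 0.69), and it was higher in both RACK1-Mut libraries. All 32 intervals lay within 0.5 of 0 on the log2 scale, from the lower bound of -0.42 for SREBF1 to the upper bound of 0.38 for TM7SF2. For MSMO1 the difference was 0.09 (95% interval -0.07 to 0.26), and for ACSS2 it was -0.14 (-0.31 to 0.03).

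The difference between the TARG1 siRNA effect and the RACK1 effect was tested in the same fit. This test crosses the experiments, which share no libraries. It reuses the libraries of both comparisons above, so it is not independent of them. The difference passed for 18 of the 32 genes, against 32.4% of all genes. SREBF2 (log2 difference 0.46, SE 0.11, adjusted p = 0.0047) and SQLE (0.62, SE 0.11, adjusted p = 0.00072) were higher under the TARG1 siRNA. So was STARD4 (0.60, SE 0.12, adjusted p = 0.0012). The other 15 were lower, led by MSMO1 (-1.84, SE 0.11, adjusted p = 7.7e-08), ACSS2 (-1.51, SE 0.11, adjusted p = 5.6e-07), TM7SF2 (-1.32, SE 0.10, adjusted p = 4.6e-07), FADS1 (-1.19, SE 0.09, adjusted p = 5.9e-07) and FADS2 (-1.06, SE 0.10, adjusted p = 3.7e-06). SCAP, INSIG2, LSS, CYP51A1 and DHCR7 passed in siTARG1 but not in this test. On the authors' RPKM scale 7 of the 32 passed, 6 lower and SQLE alone higher. Over all genes 1684 of 14024 passed on that scale, 793 lower and 891 higher. The sterol arm had 11 of its 19 genes called here, and 6 without siControl replicate 2, 6 without RACK1-WT replicate 1 and 7 without RACK1-Mut replicate 1.

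RACK1-WT was also set against siControl, to show where the RACK1 lines start from. This comparison crosses experiments, so Dox, the shRNA, the cDNA, the selection of the lines and the lack of transfection cannot be told apart, and it shares its libraries with the comparisons above. Of the 32 genes 21 passed, against 63.3% of all genes, a share near the background. Higher were 11 (31.9% of all genes) and lower 10 (31.4% of all genes). On the authors' RPKM scale the median of all genes moved from -0.02 to 0.37 on the log2 scale. There 87.9% of called genes were higher in place of 50.4%. Of the 32 genes 19 were called higher and 2 lower on that scale, against 6841 and 946 of 14024 genes.

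SQLE, SCD and ELOVL6 were all over 2-fold higher. SQLE was at 57.7 and 60.6 CPM in RACK1-WT against 26.1 and 28.3 in siControl (log2 fold change 1.12, SE 0.08, adjusted p = 2.9e-08). SCD was at 1154 and 1278 CPM against 599 and 565 (1.06, SE 0.08, adjusted p = 3.4e-08). ELOVL6 was at 62.8 and 61.6 CPM against 28 and 32.2 (1.05, SE 0.09, adjusted p = 1.4e-07). SQLE was thus above siControl in all 3 other groups, whereas ELOVL6 was below it in siTARG1 and above it in the RACK1 lines. STARD4 (0.63), DHCR7 (0.57), FADS2 (0.38), ACLY (0.35), EBP (0.33), HMGCS1 (0.30), INSIG1 (0.28) and SCAP (0.22) were the other genes called higher, the last lost without siControl replicate 2 (0.20) or RACK1-WT replicate 2 (0.18). MSMO1 (-1.17, SE 0.08, adjusted p = 1.6e-08) and SREBF2 (-0.86, SE 0.08, adjusted p = 3.4e-07) were lower on both scales. ACSS2 (-0.54) and FADS1 (-0.47) were lower, and on the RPKM scale they were -0.10 and -0.04 and did not pass. IDI1 (-0.43), ACAT2 (-0.33), CYP51A1 (-0.31), TM7SF2 (-0.26), NSDHL (-0.20) and FDPS (-0.17) were lower after TMM scaling and at 0.00, 0.10, 0.13, 0.17, 0.23 and 0.26 on the RPKM scale, so their direction against siControl depended on the scaling. NSDHL and FDPS lost their calls in turn, NSDHL without any of the 4 libraries compared (-0.23 to -0.17) and FDPS without siControl replicate 2 (-0.12), RACK1-WT replicate 1 (-0.15) or RACK1-WT replicate 2 (-0.20).

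Across all 8 libraries after TMM scaling, both siTARG1 libraries were below the other 6 in 17 of the 32 genes, against 18.6% of all genes tested. These were INSIG1, 11 sterol genes and 5 fatty acid genes. Both siControl libraries were above the other 6 in 10 genes, against 18.3% of all genes, among them ACAT2, IDI1, MSMO1, ACSS2 and FADS1. On the authors' RPKM scale, of these named genes only MSMO1 was still called lower in RACK1-WT than in siControl. For SREBF2 the order of group means was RACK1-Mut, RACK1-WT, siControl and siTARG1, with only the RACK1 lines overlapping. For FADS1 the order after TMM scaling was siTARG1, RACK1-WT, RACK1-Mut and siControl, and no neighbours in that order overlapped.

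Genes next to the pathway were counted by list, beside 46.6% called, 23.5% higher and 23.1% lower over all genes tested. Of 8 genes of SREBP processing 6 passed in siTARG1, 5 of them higher. ERLIN2, an ER protein that binds SREBP complexes, fell from 163 and 171 CPM to 37.9 and 41.5 (log2 fold change -2.07, SE 0.07, adjusted p = 1.6e-10), and stood at 148 to 155 CPM in the RACK1 lines. PAQR3, a Golgi protein known to tether SCAP, rose from 18.7 and 20.2 CPM to 64.5 and 82.4 (1.92, SE 0.11, adjusted p = 1.3e-08), and the ER ubiquitin ligase RNF139 rose as well (0.83, SE 0.08, adjusted p = 1e-06). Of 6 LXR receptors and targets, genes that answer to surplus sterol, 2 passed (33.3%, a share below that of all genes), both higher. These were the sterol exporter ABCA1 (0.26, SE 0.07, adjusted p = 0.0064, lost on the RPKM scale at 0.36) and the ubiquitin ligase MYLIP (0.34, SE 0.08, adjusted p = 0.0028). The other 4 did not pass, 3 of them with a log2 fold change below 0. Of 10 genes of sterol transport and esterification 8 passed, 4 in each direction. LIPA, the lysosomal acid lipase (0.94), and NPC2, a lysosomal sterol carrier (0.53), were higher. SOAT1, which esterifies cholesterol (-1.07), and GRAMD1B, which moves sterol from the plasma membrane to the ER (-0.62), were lower, the latter lost on the RPKM scale (-0.44).

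Of 12 genes of the isoprenoid branches 7 passed (58.3%, against 46.6% of all genes), 5 higher, among them NUS1, a subunit of the dolichol synthase (0.84), while DHDDS, its partner subunit (-0.22), and RABGGTA, a subunit of a prenyltransferase of Rab proteins (-0.27), were lower. The DHDDS call was lost without any 1 of the 4 libraries compared (-0.23 to -0.20) and the RABGGTA call without siControl replicate 2 (-0.18) or siTARG1 replicate 2 (-0.22). Of 8 genes that supply acetyl-CoA or NADPH 3 passed (37.5%, a share below that of all genes), all lower. IDH1, the cytosolic isocitrate dehydrogenase, fell from 2557 and 2360 CPM to 667 and 675 (log2 fold change -1.87, SE 0.08, adjusted p = 8.1e-10), and ME1, the malic enzyme, fell from 210 and 209 CPM to 67.7 and 80.4 (-1.50, SE 0.08, adjusted p = 1e-08). Both were also low in RACK1-WT, at 842 and 858 CPM for IDH1 and 84.3 and 76.9 CPM for ME1. Of 13 genes of fatty acid elongation and activation 9 passed, 7 higher, such as HSD17B12, the reductase of the elongation cycle (0.76, SE 0.11, adjusted p = 5.7e-05), and ACSL5, an acyl-CoA synthetase (1.00, SE 0.23, adjusted p = 0.0023). SCD5, a second desaturase (-0.45, SE 0.06, adjusted p = 5.9e-05), and MID1IP1, an activator of the carboxylase (-0.66, SE 0.14, adjusted p = 0.0017, taken from the row with the most counts of its 3), were lower, and both calls were lost on the RPKM scale (-0.34 and -0.52). In RACK1-Mut against RACK1-WT 0 genes of these lists passed edgeR's test, against 1 of 14024 genes. An unadjusted p under 0.05 was found for 1 gene each of the LXR, sterol transport and elongation lists, and for 687 of the 14024.

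Promoter sequences were read for 28 of the 32 genes, as the 250 bases before the RefSeq gene start on GRCh38.p14. ACAT2, FDFT1, SQLE and FASN had no entry matched by symbol. Both strands were searched for a sterol regulatory element (SRE, TCACNCCAC), the NF-Y box (CCAAT), the Sp1 box (GGGCGG) and the E-box (CACGTG). An NF-Y box was found in 18 of 28 promoters (64.3%), against 33% of 27305 RefSeq promoters and 35.1% of the 11441 promoters of genes tested. An Sp1 box was found in 26 of 28 (92.9%), against 42.3 and 65.7%. An E-box was found in 3 of 28 (10.7%), against 6.49 and 8.79%. The SRE letters were found in 1 of 28 (3.57%), that of SREBF2, against 0.875 and 0.892%. By direction in siTARG1, an NF-Y box was in 11 of 15 genes called lower, 2 of 5 called higher and 5 of 8 not called. Such matches describe the letters in this window and are not binding sites. Only these exact letters were searched, at a single RefSeq start per gene. Sites with other letters or near other starts would be missed, so a gene without a match may still have such a site.

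Promoters are printed below for a pair of genes that rose in siTARG1 (SREBF2 and STARD4) and for 4 that fell (INSIG1, MSMO1, TM7SF2 and ACSS2), 5′ to 3′ on the strand of the gene, ending at the base before the start. Capitals mark matches to the SRE or the NF-Y box on either strand (ATTGG is CCAAT on the other strand).
SREBF2 (chr22:41832855-41833104, plus strand): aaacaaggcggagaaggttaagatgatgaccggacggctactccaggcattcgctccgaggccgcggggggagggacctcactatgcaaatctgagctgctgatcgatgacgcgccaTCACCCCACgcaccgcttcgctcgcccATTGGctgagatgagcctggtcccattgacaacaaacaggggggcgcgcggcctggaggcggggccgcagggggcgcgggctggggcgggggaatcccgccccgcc
STARD4 (chr5:111512536-111512785, minus strand): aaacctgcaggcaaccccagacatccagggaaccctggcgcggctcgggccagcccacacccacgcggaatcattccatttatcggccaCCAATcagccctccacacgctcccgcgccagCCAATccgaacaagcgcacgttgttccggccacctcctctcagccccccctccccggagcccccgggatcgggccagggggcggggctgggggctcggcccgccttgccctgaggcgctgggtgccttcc
INSIG1 (chr7:155297628-155297877, plus strand): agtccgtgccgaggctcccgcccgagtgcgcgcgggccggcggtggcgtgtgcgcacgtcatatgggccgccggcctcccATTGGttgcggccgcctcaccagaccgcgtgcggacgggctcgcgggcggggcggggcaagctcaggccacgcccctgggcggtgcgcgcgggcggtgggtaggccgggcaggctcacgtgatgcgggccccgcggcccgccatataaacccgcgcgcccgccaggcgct
MSMO1 (chr4:165327419-165327668, plus strand): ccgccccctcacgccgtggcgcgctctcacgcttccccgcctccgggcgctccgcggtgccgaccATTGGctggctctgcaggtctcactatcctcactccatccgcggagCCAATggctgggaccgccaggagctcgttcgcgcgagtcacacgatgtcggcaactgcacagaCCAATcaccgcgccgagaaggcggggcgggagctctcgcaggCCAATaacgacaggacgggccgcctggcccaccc
TM7SF2 (chr11:65111622-65111871, plus strand): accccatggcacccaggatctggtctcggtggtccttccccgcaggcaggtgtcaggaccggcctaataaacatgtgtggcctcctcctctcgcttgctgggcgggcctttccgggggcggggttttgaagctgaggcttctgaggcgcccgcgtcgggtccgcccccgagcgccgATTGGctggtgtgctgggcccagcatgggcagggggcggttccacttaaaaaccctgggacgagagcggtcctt
ACSS2 (chr20:34874739-34874988, plus strand): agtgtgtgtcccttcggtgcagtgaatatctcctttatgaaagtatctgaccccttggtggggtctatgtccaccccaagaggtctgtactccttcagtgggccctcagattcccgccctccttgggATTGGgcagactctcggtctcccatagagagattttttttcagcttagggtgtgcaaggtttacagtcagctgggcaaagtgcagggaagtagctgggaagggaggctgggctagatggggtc
MSMO1 held 4 NF-Y boxes, while MVK, which did not pass, and NSDHL, which fell by 0.33 on the log2 scale, held 5 each. SREBF2 held the SRE letters from 133 bases and a single NF-Y box from 106 bases before its start. STARD4, which rose, held 2 NF-Y boxes, and INSIG1, TM7SF2 and ACSS2, which fell, held 1 each.

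**Figure D5:**
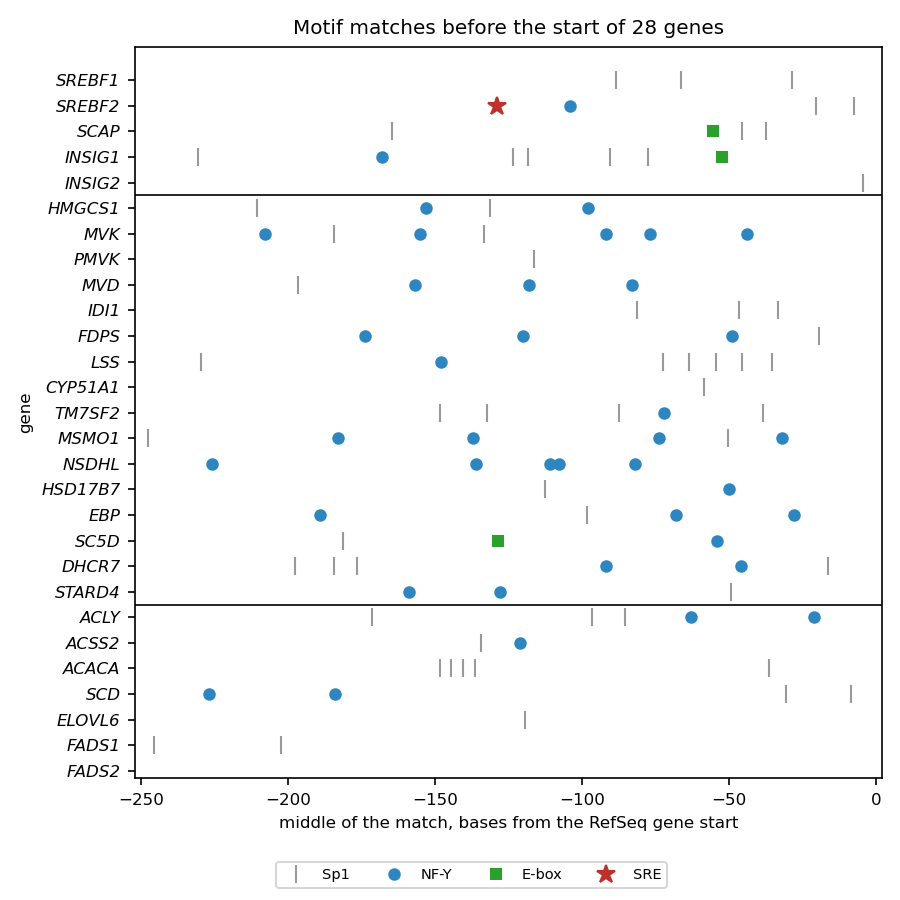
Matches to the SRE, NF-Y, Sp1 and E-box letters on either strand in the 250 bases before the RefSeq start, plotted by the middle of each match. Horizontal lines part regulators, sterol arm and fatty acid arm. NF-Y boxes (blue) appear in 18 of the 28 rows and the SRE (red star) in 1.

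Counting limits bear on some of these genes. Reads that matched several places were kept, and IDI1, FDPS, CYP51A1, HSD17B7 and SCD have annotated pseudogenes. In ACAT2, HMGCS1, FDPS, CYP51A1 and EBP over 20% of exonic bases are shared with another annotated gene, from 36.3% in ACAT2 to 90.1% in CYP51A1. Whether the counting used strand is not given in the sources used here. The genes that overlap CYP51A1 and EBP lie on the same strand as these, so strand could not part their reads. FADS1 and FADS2 share 3.25 and 4.79% of their exonic bases with each other, on opposite strands.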

How the data were processed

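RNA-seq tables of 8 OVCAR3 libraries were analysed, 2 per group, grouped by the sample labels. The authors removed rRNA and contaminant reads with Bowtie 1.1.2, used TopHat2 2.1.1 to map what remained to Gencode release 24 transcripts (GRCh37), keeping reads with several matches, and had Plastid count those 25 to 51 bases long in each region of a gene. The deposited exon counts are estimated counts, neither normalized nor whole, and they were rounded here. The authors also deposited RPKM, scaled by region length and by all alignments of a library, which serves here only as an alternative. RPKM and TMM scale libraries differently, which moves some calls. Replicates were not pooled. Coding-sequence and 3′ region counts were used for checks, and 5′ region counts and the ribosome profiling libraries were not used here.

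Rows name transcripts. Of 36595 names 94.7% matched the Gencode annotation, which gave symbols and coordinates. Groups were compared in R 4.3.3 by the quasi-likelihood method of edgeR 4.0.16 (with limma 3.58.1), after TMM scaling and filterByExpr, with 1 mean per group over all 8 libraries, leaving 4 residual degrees of freedom. The Benjamini-Hochberg adjustment ran over all 14024 genes that passed the filter, and an adjusted p under 0.05 counted as called. The method also draws the spread of each gene towards that of other genes, and the 95% intervals use the total degrees of freedom that result. Standard errors are the log2 fold change over the root of F. The script was tested on simulated data. The 32 genes and all gene lists were chosen with earlier results of these data known. All 32 are named. Those called in siTARG1 have their values given by library, and of each supporting list the 2 highest and the 2 lowest called genes are named, apart from items that are not reported here. Alternatives were DESeq2 1.42.0, RLE size factors, no filter, at least 10 counts in every library, the libraries compared alone, a replicate block, rows summed by symbol, coding-sequence counts, log2(RPKM + 0.1) with limma, and each library left out. A sum without SCD was added after its values were seen. Depth was 30989049 to 42668783 exon counts per library, and precision is limited by the 2 libraries per group as well as by counting. Promoters are from RefSeq on GRCh38.p14, and no coordinates were converted between builds.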

Additional observations from a re-analysis of the deposited data

How the results depend on the processing

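The count of 23 genes called in siTARG1 stayed between 21 and 26 under every alternative but the authors' RPKM, where it was 13 (3557 of all genes in place of 6537). No called gene changed sign in siTARG1 under any alternative run, and ACLY, DHCR7, ELOVL6, FDFT1, FDPS, LSS, MVD, NSDHL, SC5D and SCAP lost their calls in at least 1, mostly on the RPKM scale. On that scale the difference between the effects was called for 7 of the 32 genes and 1684 of all, the sterol median in siTARG1 was -0.19 and in RACK1-WT against siControl 0.44, the fatty acid median in RACK1-WT was 0.66, and the arm sums moved to -0.25 (sterol) and -0.44 (fatty acid) in siTARG1 and to 0.33 (sterol, from -0.10) and 0.78 (fatty acid, from 0.36) in RACK1-WT. Without SCD the fatty acid sum was -0.92 in siTARG1 and -0.10 in RACK1-WT. The causes were not tested, except that TMM and RPKM scale libraries differently by construction. Leaving out each library gave a sterol median in RACK1-WT of -0.08 to 0.03.

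In RACK1-Mut against RACK1-WT 0 of the 32 genes were called under every alternative, while the 1 gene called of all became 18 with DESeq2, 15 with no filter, 0 with at least 10 counts in every library, 2 with coding-sequence counts, 7 on the RPKM scale, 49 with the libraries compared alone and 0 to 1 with each library left out. The replicate numbers name no shared culture or day, and with them as a replicate block 72 genes were called there, with 26 of the 32 in siTARG1 (7802 of all), where SREBF1 (0.21), PMVK (-0.29) and FASN (-0.19) were called, as they were not in the fit without it, and 22 for the difference between the effects. Deviations of libraries with the same number correlated at 0.440 in the siRNA experiment and 0.024 in the RACK1 lines.

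Signs turned only for differences near 0 or across experiments. In siTARG1 HMGCS1 was 0.10 on the RPKM scale and -0.08 to 0.08 with each library left out, MVK -0.01 to 0.05 and SCD -0.00 to 0.11. In RACK1-Mut coding-sequence counts gave 0.01 for FDPS, -0.03 for EBP, 0.00 for ACACA and -0.09 for ELOVL6, RPKM gave 0.03 for FDPS and 0.01 for ACACA, and EBP was -0.00 with the replicate block and with the libraries compared alone. With each library left out the ranges there were -0.07 to 0.10 for INSIG1, -0.18 to 0.22 for PMVK, -0.03 to 0.05 for MVD, -0.13 to 0.03 for IDI1, -0.03 to 0.02 for FDPS, -0.00 to 0.07 for NSDHL, -0.23 to 0.01 for HSD17B7, -0.08 to 0.08 for EBP, -0.10 to 0.04 for ACACA, -0.31 to 0.08 for FASN and -0.14 to 0.01 for SCD. In RACK1-WT against siControl RPKM gave 0.10 for ACAT2, 0.00 for IDI1, 0.26 for FDPS, 0.32 for FDFT1, 0.34 for LSS, 0.13 for CYP51A1, 0.17 for TM7SF2, 0.23 for NSDHL and 0.33 for ACACA, coding-sequence counts gave -0.04 for MVD, and leaving out a library gave -0.08 to 0.14 for HSD17B7, -0.03 to 0.14 for SC5D and -0.06 to 0.28 for FASN.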

Other observations

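Genes that store or burn fatty acids were called in siTARG1 at shares near that of all genes, in both directions. Of 14 genes of fatty acid oxidation 7 passed (50%, near the 46.6% of all genes), 3 higher and 4 lower. Over all genes tested 23.5% were higher and 23.1% lower. CPT1A, which admits fatty acids to mitochondria, fell from 127 and 110 CPM to 79.8 and 81.9 (log2 fold change -0.55, SE 0.08, adjusted p = 6.1e-05, edgeR). PPARA, the receptor that drives many of these genes, rose from 37.5 and 37.3 CPM to 69.1 and 66.7 (0.86, SE 0.08, adjusted p = 6.8e-07), and the carnitine carrier SLC25A20 rose by 0.62 (SE 0.10, adjusted p = 0.00017). Of 7 genes of glycerolipid synthesis and storage 3 passed (42.9%, also near the 46.6% of all genes). GPAM, the acyltransferase of the opening step, was lower (-0.46, SE 0.08, adjusted p = 0.00051, lost on the authors' RPKM scale at -0.34), and AGPAT2 (0.38, SE 0.11, adjusted p = 0.011) and the phosphatase LPIN1 (0.37, SE 0.07, adjusted p = 0.00066) were higher. The AGPAT2 call was lost without siControl replicate 2 (0.33) or siTARG1 replicate 1 (0.27). In RACK1-Mut against RACK1-WT 0 of these 21 genes passed edgeR's test, against 1 of 14024 genes. An unadjusted p under 0.05 was found for 3 of the 21 and for 687 of the 14024.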
